A study of Mus musculus with 20 samples.

Results

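The response of the abdominal aorta to angiotensin II (Ang II) was measured in mice that lack *Plod1*, by comparing 5 Ang II-treated with 5 saline-treated *Plod1-/-* mice. These are 10 of the 20 mice that were sequenced, and they were chosen by label alone: every library labelled as a lysyl hydroxylase 1 knockout was used, and the labelled treatment gave its group. *Plod1* encodes lysyl hydroxylase 1 (LH1), which hydroxylates lysines of collagen chains and so prepares them for crosslinking. Both groups carried the same deletion, so by their labels the groups differ in treatment and not in genotype. Other differences between the mice are given below. Ang II was infused at 1000 ng/kg per minute from osmotic pumps under the skin and the control mice received saline. The aorta was taken on day 14. The labels give the C57BL/6 strain and an age of 6 months, while the study's methods place the start of infusion at a younger age and describe male mice only. The other 10 mice, 5 saline-treated and 5 Ang II-treated wild-type (WT) mice, were used only to test whether a response differed between the genotypes.

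Ang II constricts vessels through its type 1 receptor on smooth muscle cells, and a long infusion raises blood pressure and can injure the aortic wall. The wall is held by elastic lamellae with smooth muscle cells between them and by an outer coat of fibroblasts and crosslinked collagen. In injured aorta, leukocytes enter, smooth muscle cells can lose their contractile genes, and matrix is both degraded and laid down anew.

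Expression was given as FPKM, the number of fragments of a gene divided by the length of its transcript and by the size of the library, for 43422 genes. Of these, 12333 stood at 1 FPKM or more in 5 or more of the 10 mice. For them limma was run on log2(FPKM + 1), and this scale makes changes of weakly expressed genes look smaller than they are. A gene that changed by more than 1 on the log2 scale, at a Benjamini-Hochberg adjusted p below 0.05, is called a differentially expressed gene (DEG) here, and only such genes are said to have risen or fallen. Under Ang II, 1034 genes rose, which is 8.38% of the genes tested, and 680 fell, which is 5.51%. For 29.2% of the genes tested all 5 mice of one group lay above all 5 of the other. The median log2 fold change was 0.05 over the genes tested and 0.0041 over all genes in the files. Beyond the leading genes, 54 lists of pathway and cell type genes were examined, of which 832 genes were in the files, 705 were tested, 217 rose and 67 fell. A gene at a low level under saline can pass the minimum of 1 FPKM through the Ang II group alone, and then its groups had to differ. This held for 199 genes, and 96 passed through the saline group alone in the same way, among them *Col4a4* and *Ryr2*, so that counts of list members are given over all members in the files, with the number that passed in this way, and list medians are those without the minimum.

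The FPKM sum of a library ran from 344210 to 437790, and the depth behind each value is unknown. Mitochondrial genes took 9.23% to 21.1% of the sum, with the highest share in Ang II-treated mouse 1, in which the fewest genes were listed at 0 (28.8%, against 35.4% to 45.4% in the other 9 mice). *Plod1* was at no more than 0.0415 FPKM in any of the 10 mice. *Xist*, an RNA made from the inactive X chromosome of females, was at 15.1 FPKM in saline-treated mouse 5 and at 7.93 FPKM in Ang II-treated mouse 1, while *Ddx3y*, a gene of the Y chromosome chosen after its values were seen, was at 0.0961 and 1.25 FPKM in these mice and at 8.39 FPKM or more in the others. Without both libraries 1021 genes rose and 718 fell. The Ang II-treated mice differed more among themselves than the saline-treated mice, with a median SD per gene of 0.27 against 0.16 on the log2 scale. Whether the samples called replicates were processed on separate days is not stated, and p-values measure the spread between these mice.

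**Figure D1:**
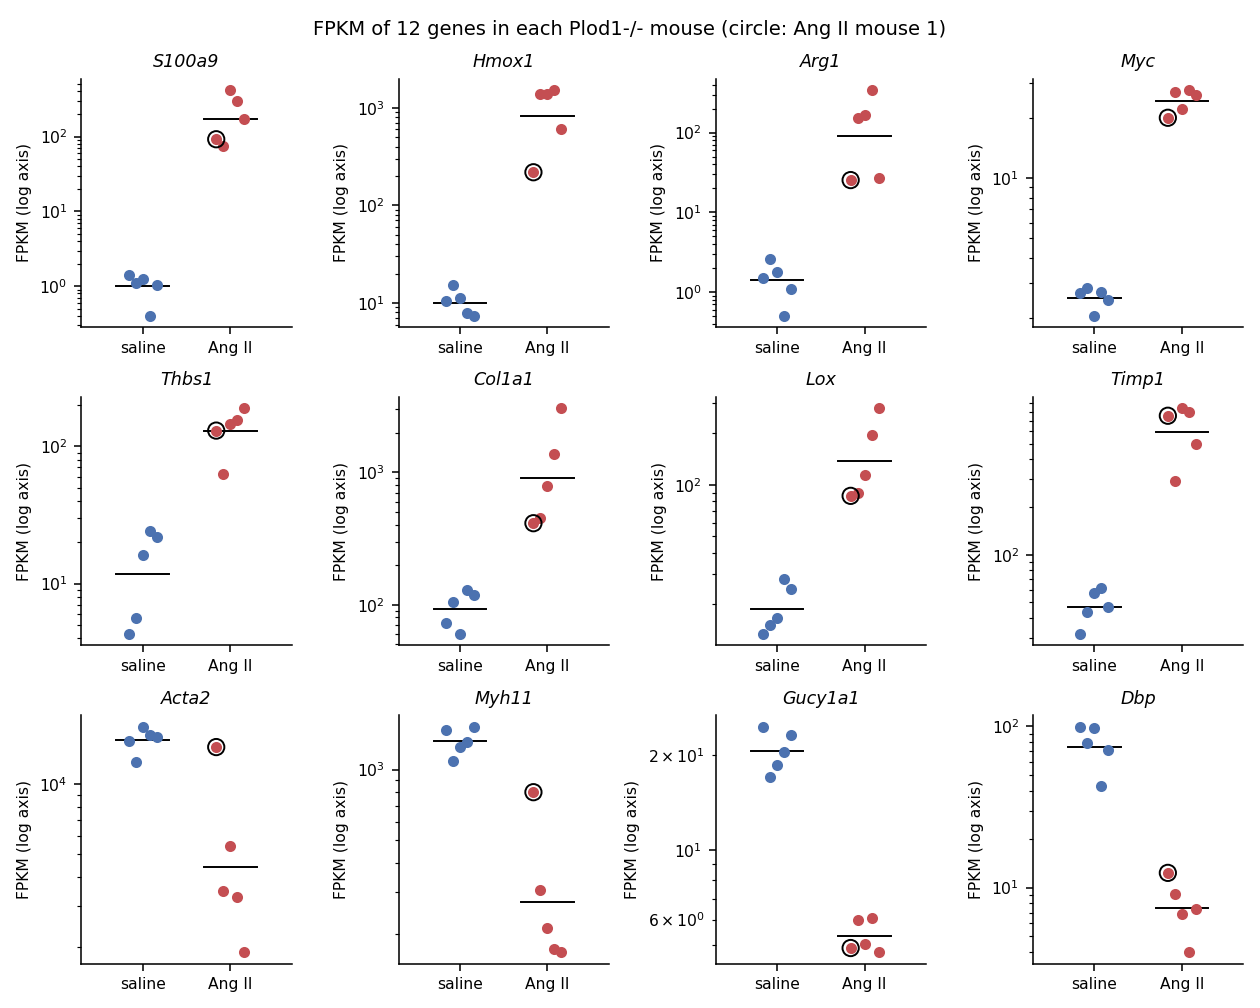
FPKM on a log axis of 12 genes in the 5 saline-treated and the 5 Ang II-treated *Plod1-/-* mice, with a point for each mouse, a line at the mean of log2(FPKM + 1) taken back to FPKM, and a circle around Ang II-treated mouse 1. The groups lie apart for *S100a9*, *Hmox1*, *Arg1*, *Myc*, *Thbs1*, *Col1a1*, *Lox*, *Timp1*, *Myh11*, *Gucy1a1* and *Dbp*, and they overlap for *Acta2*, where the circled mouse stands at the saline level.

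Neutrophil genes were among those that rose most. *S100a9* and *S100a8*, the subunits of calprotectin that neutrophils carry in their cytosol, lie next to each other on chromosome 3. *S100a8* (GRCm38 chromosome 3, 90668978 to 90670035) was at 0.404, 1.02, 0.878, 0.505 and 0.822 FPKM in saline-treated mice 1 to 5 and at 41.0, 59.9, 209, 191 and 73.6 FPKM in Ang II-treated mice 1 to 5. Every Ang II-treated mouse was above every saline-treated mouse, and the log2 fold change was 5.80 (SE 0.42, adjusted p = 2.1e-05). Of 15 neutrophil genes in the files, 8 rose and 7 were below the minimum. The other genes that rose were *S100a9*, *Retnlg*, the receptor of granulocyte growth factor *Csf3r*, the chemokine receptor *Cxcr2*, the amplifier of myeloid activation *Trem1* and the formyl peptide receptors *Fpr1* and *Fpr2*. Apart from *S100a8* and *S100a9* these passed the minimum only through the Ang II group, and without any 1 Ang II-treated mouse they could not pass it, which left 2 genes tested and both higher. Over all 15 genes the median log2 difference was 2.10. The granule genes of developing neutrophils, *Mpo*, *Elane*, *Ltf*, *Camp* and *Ngp*, did not exceed 1.23 FPKM in any mouse. In bulk tissue, more cells of a type and more RNA per cell cannot be told apart, and the same holds for fewer cells and less RNA.

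Genes of monocytes and of macrophages of injured tissue rose together. Of 18 in the files, 15 rose, 1 did not pass the test and 2 were below the minimum. Of the genes that were tested, 5 passed the minimum through the Ang II group alone, and the median over all 18 was 2.75. *Arg1*, an enzyme that breaks down arginine and is made by wound macrophages, was at 0.503 to 2.63 FPKM under saline and at 25.3, 150.1, 167, 340.2 and 27.1 FPKM in Ang II-treated mice 1 to 5. Its level varied more than 10-fold among the Ang II-treated mice and still all 5 lay above the saline-treated ones (log2 fold change 5.25, SE 0.68, adjusted p = 0.00022). *Cd68*, a lysosomal protein of macrophages, was at 3.96 to 14.97 FPKM under saline and at 55.2, 286, 362, 303 and 129.8 FPKM under Ang II (log2 fold change 4.26, SE 0.52, adjusted p = 0.00017). *Trem2* and *Spp1*, which mark lipid-laden and scar-forming macrophages, rose by 3.88 (SE 0.44) and 4.37 (SE 0.69) on the log2 scale, and *Ccr2*, the receptor by which monocytes leave the blood, by 2.22 (SE 0.34). *Gpnmb*, found in the same macrophages, had a log2 fold change of 1.06 with an adjusted p of 0.076. Leaving out 1 mouse gave between 10 and 15 genes that rose, and leaving out Ang II-treated mouse 1 with a minimum in 4 mice gave 16.

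Genes of the macrophages that live in the outer coat did not move as a block. Of 9, 6 rose and 1 fell. *Pf4*, a chemokine of platelets and of resident macrophages, was at 5.83 to 24.7 FPKM under saline and at 115, 629, 829, 789 and 243 FPKM under Ang II (log2 fold change 4.93, SE 0.59, adjusted p = 0.00015). The mannose receptor *Mrc1* and the chemokine *Ccl8* rose by 2.58 (SE 0.38) and 3.23 (SE 0.51) on the log2 scale. *Cbr2*, a carbonyl reductase, fell from 336 to 482 FPKM under saline to 109 to 272 FPKM under Ang II (log2 fold change -1.18, SE 0.24, adjusted p = 0.0026). *Lyve1*, the hyaluronan receptor by which resident macrophages are often recognised, had a log2 fold change of 0.12 (adjusted p = 0.80). *Retnla*, a secreted protein of alternatively activated macrophages, was one of the genes that fell most, from 27.7, 41.7, 47.7, 13.2 and 26.2 FPKM to 6.11, 2.97, 0.882, 1.02 and 2.49 FPKM (log2 fold change -3.18, SE 0.41).

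Lymphocyte genes did not pass the test. Of 14 T and NK cell genes 2 were tested and of 9 B and plasma cell genes 4, none of them was a DEG by limma or had an unadjusted p under 0.05, and the defining T cell genes *Cd3d*, *Cd3e* and *Cd3g* did not exceed 1.02 FPKM in any of the 10 mice. Of the constant chains, *Trac* had a log2 fold change of 0.65 (adjusted p = 0.17) and *Igkc* one of -0.46 (adjusted p = 0.62). The genes for antigen presentation on MHC class II had positive values, 0.91 for *H2-Aa* and 0.98 for *H2-Ab1*, yet of 12 only *Cd209a*, a lectin of dendritic cells, rose. This count rested on saline-treated mouse 3, which had the highest MHC class II level of the saline-treated mice, and without it 6 of the 12 rose. Without Ang II-treated mouse 1, 2 did.

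The signals that call leukocytes in rose over a wide front. Of 24 chemokine genes in the files, 15 rose, none fell and 4 were below the minimum. 3 of the 15 passed the minimum only through the Ang II group, and over all 24 the median was 1.94. *Ccl7*, a monocyte chemokine, was at 1.14, 1.26, 6.47, 1.49 and 0.980 FPKM under saline and at 41.6, 52.9, 115, 79.6 and 70.5 FPKM under Ang II (log2 fold change 4.61, SE 0.38, adjusted p = 3.2e-05). Its neighbour *Ccl2*, the main monocyte attractant, rose by 4.26 (SE 0.42) and the neutrophil attractants *Cxcl1* and *Cxcl2* by 3.06 (SE 0.29) and 4.77 (SE 0.56) on the log2 scale. *Cxcl12*, which is made by stromal cells, rose from 11.6 to 20.1 FPKM to 39.5 to 62.8 FPKM (log2 fold change 1.72, SE 0.16). By contrast, the T cell attractants *Ccl5* and *Cxcl13* had log2 fold changes of 0.22 (adjusted p = 0.62) and 1.20 (adjusted p = 0.16), and *Cxcl9* and *Cxcl10* were below the minimum.

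Among 21 cytokine genes, 9 rose and none fell. *Il6*, which drives the acute phase response, was at 0.0277 to 0.347 FPKM under saline and at 3.44, 8.20, 6.27, 10.3 and 7.64 FPKM under Ang II (log2 fold change 2.78, SE 0.22, adjusted p = 2.7e-05). *Socs3*, a target of IL-6 family receptors that damps their signal, rose from 2.80 to 8.54 FPKM to 24.9 to 102 FPKM (log2 fold change 3.60, SE 0.37). *Il1b*, *Osm*, *Il33*, *Il18* and *Il11* rose by 4.29, 2.77, 2.55, 1.92 and 1.52 on the log2 scale. *Tnf* was below the minimum, with at most 0.302 FPKM under saline and 2.39 FPKM under Ang II. *Il6*, *Il1b*, *Osm* and *Il11* passed the minimum through the Ang II group alone, and without any 1 Ang II-treated mouse 5 cytokine genes remained as DEGs.

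Of 10 acute phase genes 5 rose and none fell, and 1 of the 5, *Saa3*, passed the minimum through the Ang II group alone. *Saa3*, an amyloid protein of inflamed tissue, rose by 3.20 (SE 0.22), *Lcn2*, which withholds iron carriers from bacteria, by 3.88 (SE 0.39), and *Hp*, which encodes haptoglobin, by 5.38 (SE 0.79) on the log2 scale. *Hp* was at 113, 266, 57.7, 19.7 and 16.3 FPKM under saline and at 869, 6198, 1419, 2586 and 4043 FPKM under Ang II. Of 15 complement genes 7 rose. The 3 chains of C1q rose by 2.87 to 3.29 and the receptors *C5ar1* and *C3ar1* by 3.59 and 3.36, while *C3* itself had a log2 fold change of 0.99 (adjusted p = 0.20) and *C1ra* one of -0.73 (adjusted p = 0.017). The C1q chains and both receptors are made by macrophages, whose marker genes moved with them, and the part of these cells in the complement result was not tested. Of 16 interferon-induced genes, *Oas1a* and *Irf7* rose, and Ang II-treated mouse 3 was far above the rest for both, at 40.1 FPKM against 4.36 to 10.1 FPKM and at 40.6 FPKM against 6.14 to 15.6 FPKM. Without Ang II-treated mouse 3 or 5 or saline-treated mouse 1, 4 or 5 only 1 of the 16 rose, and without Ang II-treated mouse 2, 5 did.

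Among DEGs whose groups did not overlap, the enzyme that degrades heme had the largest rise after *S100a9* on the log2(FPKM + 1) scale. This rank depends on the scale, which shrinks changes of genes that were weak under saline, such as *Chil3* and *S100a8*. *Hmox1*, or heme oxygenase 1 (chromosome 8, 75093621 to 75100589), was at 10.3, 15.1, 11.3, 7.87 and 7.38 FPKM under saline and at 218, 1385, 1391, 1516 and 602 FPKM under Ang II (log2 fold change 6.22, SE 0.50, adjusted p = 2.7e-05). Its lowest Ang II value was over 10 times the highest saline value. Of 14 genes for heme and iron handling 8 rose and none fell, with a median of 1.24, and 1 of the 8, *Slc40a1*, passed the minimum through the Ang II group alone. They included the ferritin light chain *Ftl1* (2.41, SE 0.28), the iron exporter *Slc40a1* (2.79, SE 0.45), the lysosomal iron carrier *Slc11a1* (2.93, SE 0.51), the heme scavenger *Hpx* (1.22, SE 0.23) and the biliverdin reductase *Blvrb* (1.26, SE 0.26). *Fth1*, the ferritin heavy chain, had a log2 fold change of -0.15 (adjusted p = 0.63). Genes of red blood cells moved with them. *Hbb-bs* was at 83.6, 28.1, 700.4, 48.2 and 35.8 FPKM under saline and at 753, 342, 3763.5, 1153 and 1465 FPKM under Ang II (log2 fold change 3.80, SE 0.88, adjusted p = 0.0056), so that saline-treated mouse 3 was above the lowest Ang II-treated mouse. *Hba-a1*, *Hba-a2* and *Hbb-bt* rose as well, and because the globin copies are nearly identical in sequence the split between them is uncertain. Of 6 platelet genes 4 rose, and 2 of the 4 passed the minimum through the Ang II group alone. *Ppbp* rose by 4.41 (SE 0.62) and *Itga2b*, which passed in this way, by 1.58 (SE 0.33). Without any 1 Ang II-treated mouse 1 platelet gene rose, or 2 without mouse 2. The call of *Hpx* was lost when all 4 groups shared one fit. Whether blood in the tissue had a part in the rise of the heme genes was not tested.

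Genes that tie leukocytes to the vessel wall and genes of clotting changed beside them. *Itgb2*, the chain that leukocyte integrins share, and *Selplg*, the selectin ligand of leukocytes, rose by 3.39 (SE 0.51) and 2.88 (SE 0.46), while the endothelial receptors *Icam1* and *Vcam1* had log2 fold changes of 0.43 and 0.26 (adjusted p = 0.15 and 0.32). Of 15 genes of clotting and fibrinolysis 7 rose and 1 fell. *F7* and *F10*, clotting factors that macrophages can make, and the protease inhibitor *Tfpi2* rose by 2.54 (SE 0.47), 1.72 (SE 0.34) and 2.30 (SE 0.25) and passed the minimum through the Ang II group alone. *Serpine2*, an inhibitor of thrombin and of plasminogen activators, fell from 118 to 158 FPKM to 54.8, 19.8, 56.4, 36.8 and 20.5 FPKM (log2 fold change -1.91, SE 0.29). Tissue factor, *F3*, had a log2 fold change of -0.35 (adjusted p = 0.18). Without any of Ang II-treated mice 2 to 5, 4 of the 15 rose, and without mouse 1, 3 did. Of 15 prostanoid and leukotriene genes 5 rose, 1 of which passed the minimum through the Ang II group alone, among them *Alox5ap* (2.94, SE 0.41), which leukocytes need to make leukotrienes, and without any of Ang II-treated mice 2 to 5 this count was 3.

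Genes for the contraction of smooth muscle fell. Of 19 contractile genes in the files, 15 fell, none rose, 3 did not pass the test and 1 was below the minimum, and the median over all 19 was -1.80, against 0.0041 over all genes. *Myh11*, the smooth muscle myosin heavy chain (chromosome 16, 14194535 to 14291372), was at 1479, 1087, 1247, 1314 and 1522 FPKM under saline and at 801, 307, 212, 171 and 166 FPKM under Ang II (log2 fold change -2.27, SE 0.39, adjusted p = 0.0010). All Ang II-treated mice were lower, and mouse 1 lost least. *Acta2*, smooth muscle actin, was at 12424 to 17685 FPKM under saline and at 14456, 3470.0, 5460.0, 3276 and 1901 FPKM under Ang II (log2 fold change -1.80, SE 0.48, adjusted p = 0.012). Here the groups overlapped, because Ang II-treated mouse 1 remained at the saline level while the other 4 lay far below it. *Mylk* and *Ppp1r12b*, a kinase and a phosphatase subunit that set the phosphorylation of myosin, fell by 2.09 (SE 0.26) and 2.10 (SE 0.25) on the log2 scale, *Lmod1*, which builds thin filaments, by 2.41 (SE 0.32), and the integrin *Itga8* by 2.01 (SE 0.24). *Cnn1* and *Tagln* fell with adjusted p of 0.020 and 0.046. *Tagln* was a DEG in the full group and with Ang II-treated mouse 1 left out but with no other mouse left out, *Cnn1* was none without Ang II-treated mouse 4, and neither of them nor *Acta2* was a DEG without the minimum on FPKM, where 12 genes fell. *Des*, the intermediate filament of muscle, had a log2 fold change of -0.41 (adjusted p = 0.60), with the highest value, 229.6 FPKM, in Ang II-treated mouse 1. The mean level of the list lay 1.68 to 2.33 below the saline mean on the log2 scale in Ang II-treated mice 2 to 5 and 0.34 below it in mouse 1, and 17 genes fell without mouse 1. The smooth muscle list was at 7.47 in mouse 1 and at 6.04, 6.13, 5.71 and 5.48 in mice 2 to 5. The macrophage list, with 5 members that passed the minimum through the Ang II group alone, was at 3.82 in mouse 1. In mice 2 to 5 it was at 5.51, 6.12, 6.21 and 5.11. The opposite order of both lists thus rested on mouse 1, and mouse 5 was the lowest of mice 2 to 5 for both. The part of macrophages in the fall was not tested.

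The letters of a CArG box, the element bound by serum response factor in many muscle promoters, were looked for on both strands from 250 bases before to 50 bases after the start sites in the RefSeq promoters of GRCm38.p6. Of 17 such windows, for 15 of the 19 contractile genes, 1 held it, against 1.63% of all 32851 windows. This was the window of *Myl9*, the regulatory light chain of myosin, which fell from 4371 to 6430.5 FPKM to 3226, 1524.5, 1705, 1152 and 724 FPKM (log2 fold change -1.85, SE 0.36). The stretch around the box, on the plus strand at chr2:156775273-156775342, begins its box 161 bases before the start site, with the box in capitals. A match is a description of the sequence only.
Myl9: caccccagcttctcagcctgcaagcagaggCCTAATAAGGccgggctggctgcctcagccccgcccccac

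Of 16 genes through which nitric oxide and cyclic GMP relax smooth muscle, 5 fell, 2 rose, 5 were not called and 4 were below the minimum, with a median of -0.07. *Gucy1a1* and *Gucy1b1*, the subunits of the receptor for nitric oxide, both fell. *Gucy1a1* was at 24.6, 16.999, 18.5, 20.5 and 23.1 FPKM under saline and at 4.87, 6.00, 5.02, 6.09 and 4.72 FPKM under Ang II (log2 fold change -1.77, SE 0.12, adjusted p = 1.9e-05). In contrast to *Acta2* and *Myh11*, the 5 Ang II-treated mice stood close to each other, mouse 1 included. *Pde5a*, which degrades cyclic GMP, and the natriuretic peptide receptors *Npr1* and *Npr2* fell by 1.85 (SE 0.14), 1.27 (SE 0.22) and 1.28 (SE 0.16) on the log2 scale. *Arg1* and *Ddah1*, which lower the supply of arginine and of nitric oxide synthase inhibitors, rose, and *Ddah1* passed the minimum through the Ang II group alone. Without any 1 Ang II-treated mouse only 1 gene of the list rose. *Nos3*, the endothelial synthase, had a log2 fold change of -0.14 (adjusted p = 0.64).

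Of 17 ion channel and pump genes of smooth muscle 5 fell and none rose, with a median of -0.68, and 2 of those tested passed the minimum through the saline group alone. They included the calcium release channels *Ryr2* and *Itpr1* (-1.05, SE 0.09 and -1.26, SE 0.11), *Abcc9*, a subunit of the ATP-sensitive potassium channel (-1.42, SE 0.14), and the calcium pump *Atp2b4* (-1.10, SE 0.18). Among genes of constrictor pathways *Ace*, the enzyme that makes Ang II, fell from 108 to 135 FPKM to 25.02 to 56.3 FPKM (log2 fold change -1.75, SE 0.20, adjusted p = 0.00013). The thromboxane receptor *Tbxa2r* and the regulator *Rgs5* fell by 1.50 (SE 0.21) and 1.93 (SE 0.35). The endothelin receptor *Ednrb* rose from 0.707 to 2.04 FPKM to 4.50 to 27.6 FPKM (log2 fold change 3.15, SE 0.42). The receptors for Ang II itself were low: *Agtr1a* rose from 0.264 to 1.03 FPKM to 0.649 to 9.80 FPKM with overlap (log2 fold change 1.47, SE 0.42, adjusted p = 0.016), and *Agtr1b* had a log2 fold change of -0.76 (adjusted p = 0.060). *Ptgis*, the synthase of the vasodilator prostacyclin, fell from 717 to 1158 FPKM to 127 to 478 FPKM (log2 fold change -1.92, SE 0.33), while *Ptgs2*, the inducible cyclooxygenase, rose by 2.06 (SE 0.37). Of 19 genes of constrictor pathways 4 fell and 2 rose, and 2 that were not called passed the minimum through a single group, with 4 that rose without Ang II-treated mouse 1 and 1 without any other mouse of that group.

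Of 18 integrin genes 5 fell and *Itgb7*, a chain found on leukocytes, rose. *Itgb5* fell from 252 to 340.3 FPKM to 114 to 150.4 FPKM (log2 fold change -1.22, SE 0.12), and the chains *Itga3*, *Itga7*, *Itga9* and *Itga10*, which pair with the common chain *Itgb1* to bind matrix, fell by 1.01 to 1.47. *Itgb1* had a log2 fold change of -0.40 (adjusted p = 0.25). Without Ang II-treated mouse 3 or 5 or saline-treated mouse 4, 3 integrin genes fell.

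**Figure D2:**
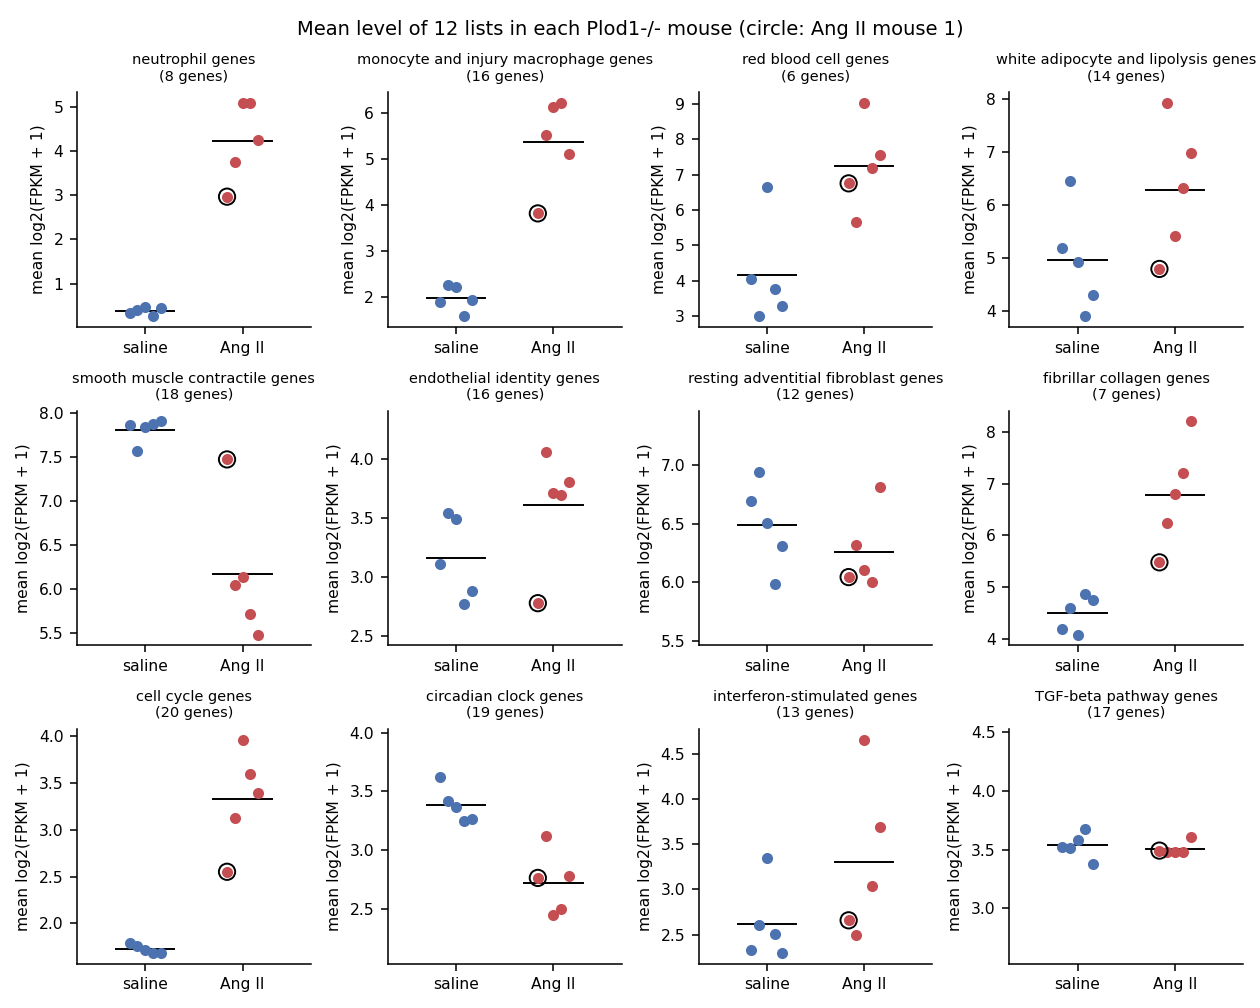
Mean log2(FPKM + 1) of the tested members of 12 gene lists in each *Plod1-/-* mouse, with a point for each mouse, a line at the group mean and a circle around Ang II-treated mouse 1. For the macrophage list the saline-treated mice lie between 1.59 and 2.26 and the Ang II-treated mice between 3.82 and 6.21, whereas for the smooth muscle list they lie between 7.57 and 7.91 and between 5.48 and 7.47. The levels include members that passed the minimum through the Ang II group alone, whose groups had to differ. These are 5 in the macrophage, 6 in the neutrophil and 6 in the cell cycle list.

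Fibrillar collagens rose. Of 11 in the files 6 rose, 1 did not pass the test and 4 were below the minimum, with a median of 1.71. *Col1a1*, a chain of type I collagen (chromosome 11, 94936224 to 94953042), was at 72.6, 105, 59.9, 128 and 119 FPKM under saline and at 413, 450.0, 790.1, 1383 and 3049 FPKM under Ang II (log2 fold change 3.27, SE 0.51, adjusted p = 0.00063). All 5 Ang II-treated mice were above the saline-treated mice, with Ang II-treated mouse 5 the highest. That mouse was also the highest for *Col3a1*, *Col1a2*, *Col5a1*, *Col5a2* and *Col5a3*, which rose by 3.07 (SE 0.45), 2.02 (SE 0.42), 1.71 (SE 0.43), 2.10 (SE 0.36) and 3.03 (SE 0.67) on the log2 scale.

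Of the enzymes that modify and crosslink collagen, 22 in the files, 5 rose and 1 fell, and 12 had groups without overlap, against 29.2% of all genes tested. *Lox*, the main lysyl oxidase, was at 13.4, 15.1, 16.6, 28.1 and 24.4 FPKM under saline and at 86.2, 89.9, 115, 196 and 280.4 FPKM under Ang II (log2 fold change 2.81, SE 0.34, adjusted p = 0.00017). Its relatives *Loxl2* and *Loxl4* rose by 1.94 (SE 0.21) and 1.32 (SE 0.17). *P4ha3*, a prolyl hydroxylase subunit, rose by 2.91 (SE 0.40), and *Serpinh1*, a chaperone of procollagen, by 1.31 (SE 0.30) with overlap. The other lysyl hydroxylases, which share the work of the missing LH1, did not reach the threshold of fold. *Plod3* had a log2 fold change of 0.49 (adjusted p = 0.012, without overlap) and *Plod2* one of 0.66 (adjusted p = 0.070). Without Ang II-treated mouse 3, 4 or 5 the count that rose was 3, and *Loxl4* and *P4ha3* passed the minimum through the Ang II group alone.

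Matricellular genes, whose products sit in the matrix and act on cells, rose in part. Of 16, 8 rose and none fell, 1 of the 8 passed the minimum through the Ang II group alone, and the median was 1.51. *Thbs1*, or thrombospondin-1 (chromosome 2, 118111876 to 118127133), was at 4.29, 5.58, 16.01, 24.1 and 21.7 FPKM under saline and at 130.0, 63.2, 144, 156 and 189 FPKM under Ang II (log2 fold change 3.34, SE 0.47, adjusted p = 0.00037). The saline-treated mice spread over more than 5-fold, yet the lowest Ang II-treated mouse was above the highest of them. *Thbs1* overlaps *Gm29233* on the other strand, and the libraries did not keep the strand, as for 388 of the DEGs. *Thbs2* rose by 1.97 (SE 0.51), *Ccn4* by 2.03 (SE 0.34) and *Col12a1* by 2.52 (SE 0.51). *Tnc*, or tenascin C, rose by 1.79 (SE 0.46) with overlap and was highest in Ang II-treated mouse 1, at 153 FPKM against 18.97 to 57.8 FPKM in the other 4. *Postn*, *Fn1* and *Ccn2* had log2 fold changes of 0.71, -0.48 and 0.06, with adjusted p of 0.17, 0.22 and 0.92.

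Of 16 elastic fibre genes 3 rose, 3 fell, 9 were not called and 1 was below the minimum. *Fbln5* and *Ltbp4*, which are needed to assemble elastin, fell by 1.66 (SE 0.18) and 2.05 (SE 0.30) on the log2 scale. *Ltbp4* was at 172, 306, 199, 288 and 239 FPKM under saline and at 87.5, 90.6, 35.0, 34.1 and 57.4 FPKM under Ang II, with no overlap. *Fbln2*, *Mfap5* and the fibrillin *Fbn1* rose by 2.43 (SE 0.27), 1.36 (SE 0.23) and 1.15 (SE 0.34), the last one not without Ang II-treated mouse 5. *Eln*, elastin itself, had a log2 fold change of 0.72 (adjusted p = 0.23). Of 17 basement membrane genes 3 rose and 4 fell, and 2 of those tested, one of them *Col4a4*, passed the minimum through the saline group alone. *Col4a4*, one of the 10 DEGs with the smallest p, was at 3.43 to 4.71 FPKM under saline and at 0.656, 0.636, 0.707, 0.514 and 0.518 FPKM under Ang II (log2 fold change -1.60, SE 0.09, adjusted p = 1.9e-05). *Col4a5*, *Col4a6* and the laminin *Lamb2* fell by 1.05, 1.81 and 1.62, whereas the common chains *Col4a1* and *Col4a2* had log2 fold changes of 0.23 and 0.03 (adjusted p = 0.37 and 0.90), and *Lamb1*, *Nid1* and *Nid2* rose by 2.42, 1.26 and 1.61. The call of *Col4a5* was lost without Ang II-treated mouse 1 or saline-treated mouse 4 and that of *Nid1* without Ang II-treated mouse 5. Without saline-treated mouse 4, 2 basement membrane genes fell in place of 4.

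Among 31 metalloproteases and their inhibitors 8 rose and 3 fell. The gelatinase *Mmp9* rose from 0.495 to 2.63 FPKM to 4.65, 23.5, 72.4, 59.9 and 17.4 FPKM (log2 fold change 3.50, SE 0.61, adjusted p = 0.0012). *Mmp14*, which activates proMMP-2 at the cell surface, rose by 1.82 (SE 0.33), *Mmp19* by 2.36 (SE 0.44) and *Adam8* by 4.32 (SE 0.52). The inhibitor *Timp1* rose most of all inhibitors, from 31.6, 43.5, 57.2, 62.0 and 46.9 FPKM to 752, 293, 837, 795 and 502 FPKM (log2 fold change 3.63, SE 0.30, adjusted p = 3.1e-05). *Timp4* fell by 1.45 (SE 0.30), and *Timp2* and *Timp3* had log2 fold changes of -0.76 and -0.42. *Mmp3* had one of 0.27 (adjusted p = 0.33), and *Mmp12* and *Mmp13* were below the minimum. Of 17 lysosomal genes 8 rose, among them the cathepsins *Ctss* (4.52, SE 0.55), *Ctsk* (1.74, SE 0.25) and *Ctsc* (2.15, SE 0.36), and 12 rose without Ang II-treated mouse 1. The plasminogen activator *Plau* and its receptor *Plaur* rose by 1.99 (SE 0.28) and 2.32 (SE 0.29).

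Of 10 genes of hyaluronan, a long sugar polymer of the matrix, 3 rose and 1 fell. *Has1*, a hyaluronan synthase, was at 0.461 to 1.20 FPKM under saline and at 9.31, 9.44, 12.7, 8.11 and 17.1 FPKM under Ang II (log2 fold change 2.87, SE 0.19, adjusted p = 1.9e-05). *Tnfaip6*, which links hyaluronan to heavy chains, and the receptor *Cd44* rose by 3.01 (SE 0.18) and 2.30 (SE 0.21), while *Hyal1*, which digests it, fell by 1.37 (SE 0.21). Resting fibroblast genes showed no common direction. Of 12, *Islr* and *Clec3b* fell and *Ly6a* rose. *Islr* was at 275, 239.6, 255, 262 and 236 FPKM under saline and at 59.9, 55.9, 48.1, 41.9 and 71.3 FPKM under Ang II (log2 fold change -2.19, SE 0.14). *Dcn* and *Lum* had log2 fold changes of -0.19 and 0.79 (adjusted p = 0.62 and 0.15), and the call of *Ly6a* was lost without saline-treated mouse 1, 4 or 5 or Ang II-treated mouse 2, 3 or 5.

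**Figure D3:**
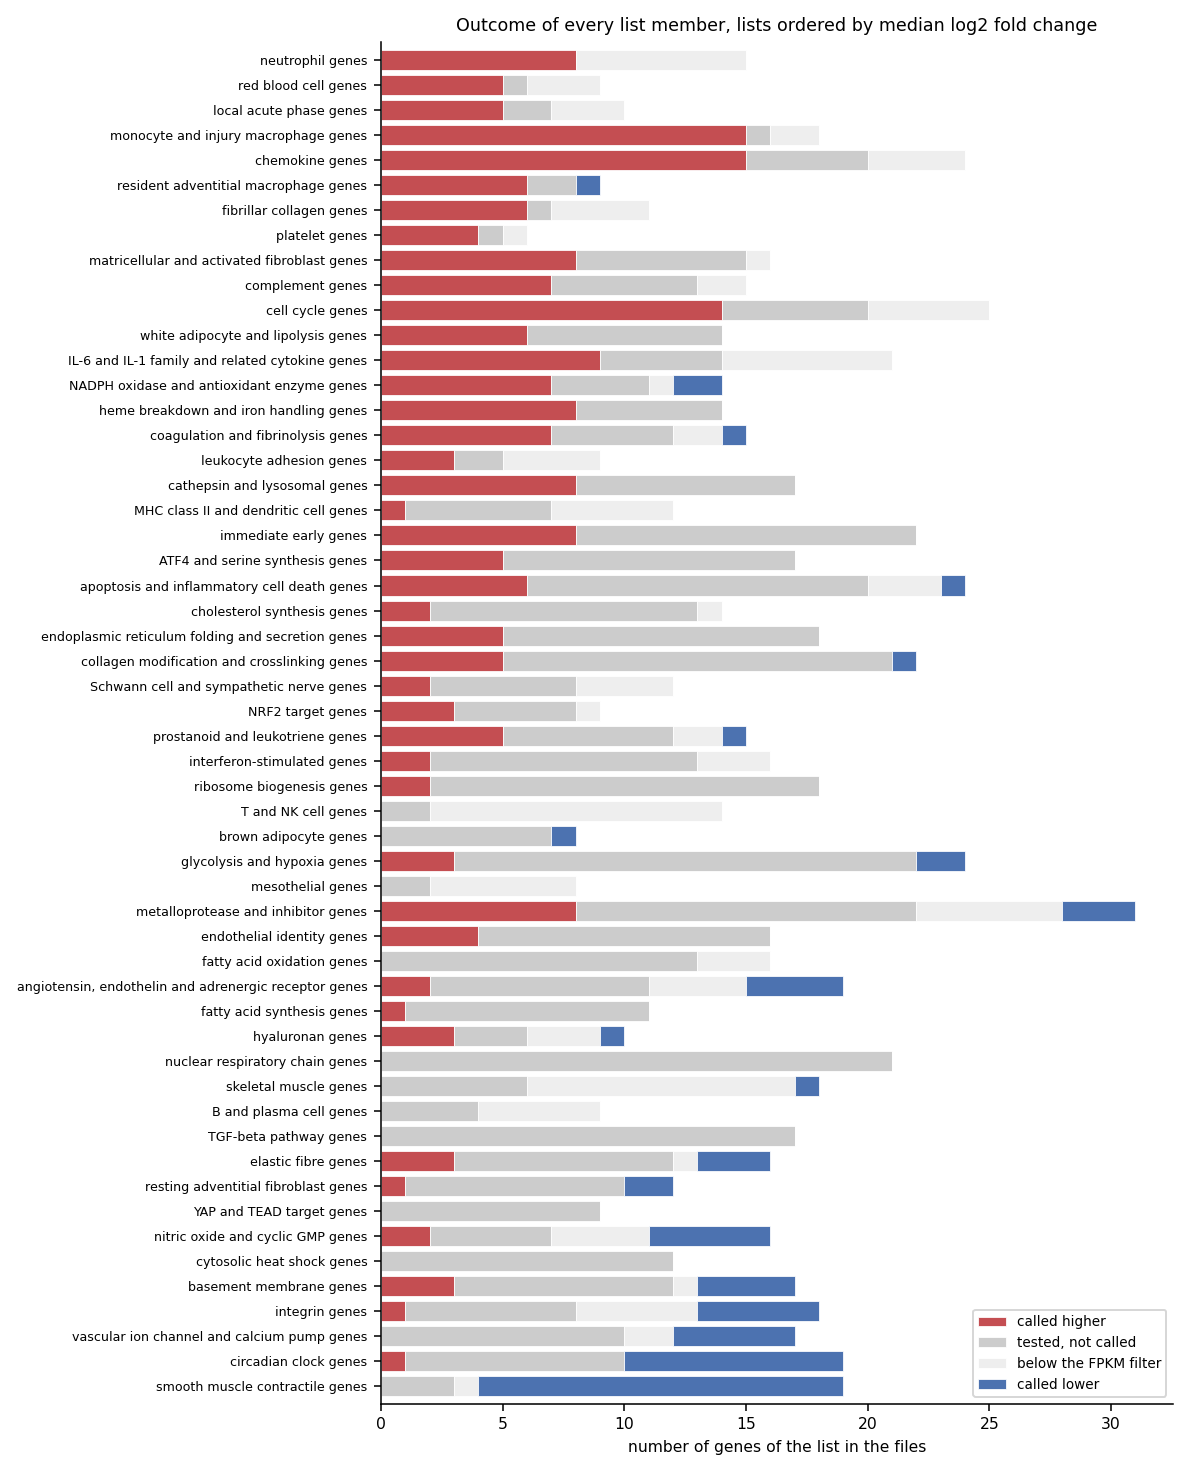
Number of members of each of the 54 gene lists that rose, fell, were tested without being called or were below the minimum of 1 FPKM in 5 of the 10 *Plod1-/-* mice, with the lists ordered by the median log2 fold change of their tested members. The macrophage list holds 15 genes that rose of 18 and the chemokine list 15 of 24, while the smooth muscle list holds 15 genes that fell of 19.

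*Myc*, a transcription factor that drives growth and ribosome making, had the smallest p of all genes. *Myc* (chromosome 15, 61985391 to 61990374) was at 2.67, 2.81, 2.05, 2.68 and 2.44 FPKM under saline and at 20.1, 27.2, 22.3, 27.7 and 26.03 FPKM under Ang II (log2 fold change 2.86, SE 0.11, adjusted p = 8.6e-07). No Ang II-treated mouse stood apart from the others. Of 18 ribosome biogenesis genes, in which *Myc* is counted, 2 rose, *Myc* and *Nhp2*, and 14 had groups without overlap, with a median of 0.52. Over all genes tested 8.38% rose and 29.2% had groups without overlap. *Nop58*, *Gnl3*, *Fbl* and *Npm1* had log2 fold changes of 0.85, 0.79, 0.92 and 0.60, all with adjusted p of at most 0.0015 and under the threshold of fold. Proliferation genes rose as well, from low levels. Of 25 cell cycle genes 14 rose, none fell and 5 were below the minimum, 6 passed it through the Ang II group alone, and over all 25 the median was 1.59. *Mcm5*, a part of the replicative helicase, was at 1.26 to 1.97 FPKM under saline and at 6.07, 8.55, 19.2, 11.8 and 10.1 FPKM under Ang II (log2 fold change 2.16, SE 0.23, adjusted p = 9.5e-05). The mitotic genes *Ccnb2*, *Plk1* and *Cdk1* rose by 2.87, 2.32 and 2.51. Ang II-treated mouse 3 had the highest level of the list and mouse 1 the lowest. Without any 1 Ang II-treated mouse 8 genes rose among 14 that could be tested.

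Amino acid and secretory pathway genes moved with them. Of 17 genes of the ATF4 and serine synthesis list 5 rose and none fell. *Psat1*, an enzyme of serine synthesis, was at 1.53, 2.13, 2.25, 1.75 and 2.17 FPKM under saline and at 11.3, 8.93, 15.6, 15.1 and 11.8 FPKM under Ang II (log2 fold change 2.17, SE 0.15, adjusted p = 1.9e-05). *Phgdh*, *Aldh18a1* and *Asns* rose by 1.22 (SE 0.18), 1.29 (SE 0.17) and 2.15 (SE 0.24), whereas the stress genes *Ddit3*, *Trib3* and *Atf5* had log2 fold changes of -0.59, 0.34 and -0.32 with adjusted p of 0.12, 0.20 and 0.13. Of 18 endoplasmic reticulum folding genes 5 rose and 14 had groups without overlap, against 29.2% of all genes tested, with a median of 0.74. *Sdf2l1*, *Pdia6* and *Sec61b* rose by 2.14 (SE 0.27), 1.43 (SE 0.14) and 1.45 (SE 0.16), and *Hspa5*, the chief chaperone, had a log2 fold change of 0.91 (adjusted p = 0.0013). None of 12 heat shock genes rose or fell by limma, where 6 had an unadjusted p under 0.05, and with Ang II-treated mouse 1 left out 3 fell. Of 24 cell death genes 6 rose and 1 fell, and 1 that was not called passed the minimum through the Ang II group alone. *Ripk3* and *Mlkl*, the kinase and the membrane-breaking effector of necroptosis, rose by 2.89 (SE 0.27) and 1.97 (SE 0.21), and the survival gene *Bcl2* fell from 4.52 to 5.59 FPKM to 1.61 to 2.11 FPKM (log2 fold change -1.07, SE 0.09). *Casp8* and *Gsdmd* rose by 1.18 and 1.21.

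Phagocyte oxidase subunits and the oxidase of smooth muscle changed in opposite directions. *Ncf1*, *Ncf4* and *Rac2* rose by 3.15, 3.24 and 3.17 on the log2 scale, each without overlap. *Nox4*, which smooth muscle makes, fell from 29.2 to 44.9 FPKM to 10.9, 19.8, 7.70, 7.47 and 10.2 FPKM (log2 fold change -1.74, SE 0.23), and the secreted superoxide dismutase *Sod3* fell by 1.21 (SE 0.17). Of the 14 genes of the oxidase list 7 rose, 1 of them through passing the minimum in the Ang II group alone, and 2 fell. Macrophage markers moved with the phagocyte subunits and contractile genes with *Nox4*, and their part in these changes was not tested.

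Immediate early genes rose in part and with wide spread. Of 22, 8 rose and none fell. *Ier3* was at 30.6 to 45.8 FPKM under saline and at 101, 119.6, 115, 95.0 and 62.7 FPKM under Ang II (log2 fold change 1.39, SE 0.19, adjusted p = 0.00028). *Fos* was at 17.9, 6.40, 33.6, 226 and 123 FPKM under saline and at 99.5, 378, 401, 220.4 and 195 FPKM under Ang II (log2 fold change 2.45, SE 0.84, adjusted p = 0.037), so that saline-treated mouse 4 was above 3 of the Ang II-treated mice. The call of *Fos* was lost without saline-treated mouse 1, 2 or 3 or any of Ang II-treated mice 2 to 5. *Jun*, *Egr1* and *Atf3* had log2 fold changes of 1.00, 0.78 and 0.76 (adjusted p = 0.10, 0.11 and 0.18). Without saline-treated mouse 1, 2 or 3, 5 of the 22 rose.

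Circadian clock genes were partly lower. Of 19 in the files, 9 fell, 1 rose and 9 did not pass the test, with a median of -0.96. *Dbp*, a clock-driven activator (chromosome 7, 45705088 to 45710203), was at 99.6, 79.2, 98.3, 42.8 and 71.0 FPKM under saline and at 12.3, 9.15, 6.82, 3.97 and 7.37 FPKM under Ang II (log2 fold change -3.16, SE 0.29, adjusted p = 4.2e-05). Its relatives *Tef* and *Hlf* fell by 1.60 each (SE 0.28 and 0.32), and *Nfil3*, which binds the same sites as a repressor, rose from 3.62 to 13.8 FPKM to 20.6 to 35.8 FPKM (log2 fold change 2.12, SE 0.29, adjusted p = 0.00030). The nuclear receptor *Nr1d1* fell from 139 to 194 FPKM to 63.8, 35.2, 17.9, 22.2 and 33.5 FPKM (log2 fold change -2.32, SE 0.28), and *Nr1d2*, *Ciart*, *Bhlhe41*, *Per2* and *Per3* fell by 1.13 to 2.38. The central activators *Arntl*, *Clock* and *Npas2* had log2 fold changes of 0.70, -0.06 and 0.22 with adjusted p of 0.093, 0.70 and 0.60. Leaving out any 1 mouse gave 9 or 10 genes that fell. The sources used here do not give the hour at which each aorta was taken, so the treatment and the hour of sampling cannot be told apart.

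The clock proteins CLOCK and BMAL1 bind the E-box CACGTG, and its letters, which are the same on both strands, were looked for in the RefSeq promoters of GRCm38.p6. Of the 19 clock genes 16 had promoters, in 21 windows, and 5 genes held an E-box in 6 windows, against 7.15% of all 32851 windows. They are shown because genes that fell (*Ciart*, *Bhlhe41*, *Tef*) and genes that were not called (*Per1*, *Cry1*) both carry it. Each stretch gives the E-boxes in capitals with 30 bases on either side, read along the strand of the gene. Those of *Ciart* (chr3:95882237-95882374), *Bhlhe41* (chr6:145865538-145865603) and *Cry1* (chr10:85185079-85185144) are on the minus strand, and those of *Tef* (chr15:81802516-81802581 and chr15:81811246-81811311) and *Per1* (chr11:69098753-69098818) on the plus strand. *Ciart* holds 3, from 116 to 44 bases before its start site, and fell from 9.80 to 38.7 FPKM to 1.32 to 8.23 FPKM (log2 fold change -2.38, SE 0.43). *Per1* and *Cry1* had log2 fold changes of -0.37 and 0.34 (adjusted p = 0.18 and 0.30).
Ciart: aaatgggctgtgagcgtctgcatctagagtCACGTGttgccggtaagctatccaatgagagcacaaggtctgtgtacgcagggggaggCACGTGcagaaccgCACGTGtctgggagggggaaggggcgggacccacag
Bhlhe41: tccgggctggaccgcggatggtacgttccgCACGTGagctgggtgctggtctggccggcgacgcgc
Tef: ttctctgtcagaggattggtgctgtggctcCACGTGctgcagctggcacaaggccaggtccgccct
Tef: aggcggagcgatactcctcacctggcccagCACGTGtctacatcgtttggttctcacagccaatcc
Per1: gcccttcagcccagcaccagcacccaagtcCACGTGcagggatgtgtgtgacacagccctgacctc
Cry1: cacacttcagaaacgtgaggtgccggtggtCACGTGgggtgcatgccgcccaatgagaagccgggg

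**Figure D4:**
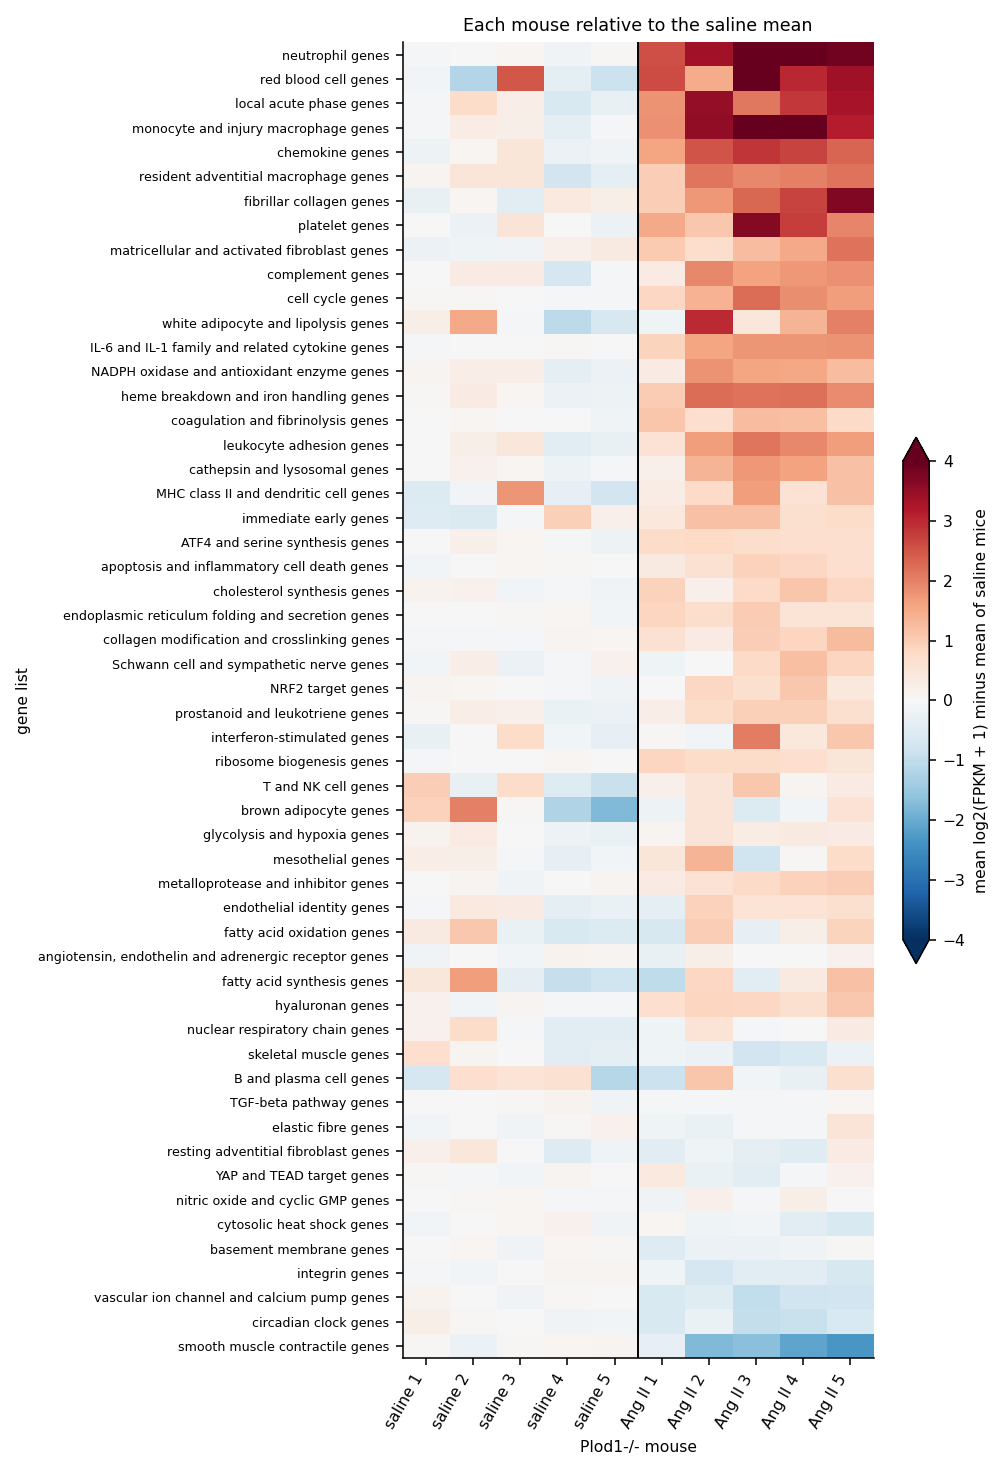
Mean log2(FPKM + 1) of the tested members of each of the 54 gene lists in each *Plod1-/-* mouse minus the mean of the saline-treated mice, with colours from -4 to 4. Members that passed the minimum through a single group, whose groups had to differ, are included. In the smooth muscle row Ang II-treated mouse 1 is at -0.34 and mice 2 to 5 are between -2.33 and -1.68, and in the white fat row the same mice run from -0.16 to 2.97.

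Among the other genes that fell most were genes of several roles. *Tcap*, a cap protein of the sarcomere, was at 648, 407, 658, 330.2 and 457 FPKM under saline and at 40.6, 84.4, 29.4, 7.61 and 24.1 FPKM under Ang II (log2 fold change -4.02, SE 0.50, adjusted p = 0.00020). It is the only one of 18 skeletal muscle genes that fell, and the defining genes *Myh1*, *Myh2* and *Myh4* were at or below 0.0754 FPKM in every mouse. *Sost*, or sclerostin, an inhibitor of Wnt signals, was at 731, 638, 586, 704 and 470 FPKM under saline and at 48.4, 190, 74.7, 31.6 and 54.2 FPKM under Ang II (log2 fold change -3.22, SE 0.39). *Ppp1r1b*, an inhibitor of protein phosphatase 1, and *Fbxl22*, a ubiquitin ligase part found in muscle, fell by 2.99 (SE 0.35) and 2.87 (SE 0.40), and *Tceal6* and *Smim5* by 3.72 (SE 0.33) and 3.57 (SE 0.31). *H19*, an imprinted RNA of fetal tissue, rose from 0.112 to 2.96 FPKM to 40.7, 10.7, 26.7, 67.4 and 204 FPKM (log2 fold change 4.87, SE 0.67). Of the 10 DEGs with the smallest p, *Fbxo30*, *Cpq* and *Islr* fell and *Fam107b* and *1110038B12Rik* rose, by 1.58, 1.86, 2.19, 1.91 and 1.41 on the log2 scale, and for all 5 the SE was at most 0.14.

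Smaller groups are given for completeness. Of 14 genes of cholesterol synthesis, *Mvd* and *Cyp51* rose, by 1.65 (SE 0.15) and 1.50 (SE 0.24), and without Ang II-treated mouse 2, 7 did. Of 9 targets of the oxidant sensor NRF2, *Gsr*, *Txnrd1* and *Gclm* rose, by 1.72 (SE 0.28), 1.04 (SE 0.15) and 1.04 (SE 0.20), whereas *Nqo1* had a log2 fold change of -0.78 (adjusted p = 0.0060), and without Ang II-treated mouse 4 only 1 of the 9 rose. *Txnrd1* and *Gclm* were not called after quantile normalization. Of 12 genes of Schwann cells and nerve, *Mbp*, a myelin protein, and *Sox10* rose with overlap, by 1.24 (SE 0.35) and 1.06 (SE 0.36). None of the 12 rose without Ang II-treated mouse 4, 1 without Ang II-treated mouse 3 or 5 or any of saline-treated mice 1 to 4, and 4 without Ang II-treated mouse 1. The mean level of the tested members differed from the saline mean by -0.18, -0.03, 0.76, 1.21 and 0.85 in Ang II-treated mice 1 to 5. *Th* and *Dbh* are among the 4 members below the minimum and are described with other nerve genes at the end.

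Several programs gave no DEG or few. None of 17 genes of the TGF-beta pathway and none of 9 of the YAP pathway was a DEG by limma, where 7 and 3 had an unadjusted p under 0.05. *Tgfb1* had a log2 fold change of 0.87 (adjusted p = 0.011), the receptor *Tgfbr1* one of -0.81 (adjusted p = 0.00015, without overlap) and *Yap1* one of -0.52 (adjusted p = 0.0030). Without Ang II-treated mouse 1, 2 genes of the TGF-beta list rose. No gene of 21 for oxidative phosphorylation and no gene of 16 for fatty acid oxidation was a DEG by limma or had an unadjusted p under 0.05, with medians of 0.11 and 0.22. Of 16 endothelial genes 4 rose, *Emcn* by 1.65 (SE 0.28) and *Cdh5* by 1.47 (SE 0.42), while *Pecam1* and *Vwf* had log2 fold changes of -0.47 and 0.06 (adjusted p = 0.37 and 0.93). Leaving out any 1 of 7 mice (saline-treated 1, 4 or 5 or Ang II-treated 2 to 5) left 2. Of 24 glycolysis genes 3 rose and 2 fell, beside 8.38% and 5.51% of all genes tested, and without Ang II-treated mouse 1, 6 rose. White fat genes varied with the mouse. *Adipoq*, or adiponectin, was at 42.7, 119, 34.6, 15.4 and 22.8 FPKM under saline and at 84.9, 611, 103, 186 and 367 FPKM under Ang II (log2 fold change 2.47, SE 0.64, adjusted p = 0.0098), with Ang II-treated mouse 2 the highest and the groups overlapping. Of 14 white fat genes 6 rose, and 3 without saline-treated mouse 3 or 4 or Ang II-treated mouse 2, 4 or 5. The fat genes mark tissue around the vessel, and *Hp* and *Lrg1*, which fat also makes, were likewise highest in Ang II-treated mouse 2, so that the part of fat in their rise was not tested.

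The response of *Plod1-/-* mice was set against that of WT mice by a test of the difference itself, on 13263 genes of the 20 mice. The difference was called positive for 9.69% and negative for 6.36% of these genes. Positive calls were 60.4% of all calls, and 48.2% after quantile normalization. The lists were chosen with the knockout response known, and the test uses those values again. Here and below, calls of list members were counted only among members that passed the minimum in *Plod1-/-* mice. Members that passed it only over the 20 mice were not counted, so further calls among them are possible. Of the 15 neutrophil genes 7 were counted as positive and of the 18 macrophage genes 13, and 15 of 24 chemokine, 10 of 21 cytokine, 15 of 22 collagen-modifying, 5 of 11 fibrillar collagen, 11 of 16 matricellular, 17 of 25 cell cycle, 12 of 18 folding and 18 of 22 immediate early genes. No member counted in these lists was called negative save *Comp* among the matricellular and *P3h2* among the collagen-modifying genes. *Ccl7* differed by 6.69, *Hmox1* by 6.48, *Pf4* by 5.55, *Thbs1* by 4.15, *Myc* and *Lox* by 3.80 each and *Col1a1* by 3.65 on the log2 scale. For the immediate early list the median was 0.89 in *Plod1-/-* and -1.62 in WT mice, so that the larger part of its difference lay in the WT mice. The WT median was also negative, against a positive one in *Plod1-/-* mice, for collagen-modifying (-0.50), folding (-0.56), matricellular (-0.37), cytokine (-0.19) and fibrillar collagen genes (-0.02). It was positive for neutrophil (0.47), macrophage (0.64), chemokine (0.11) and cell cycle genes (0.01). Among single genes, the WT difference was -2.09 for *Ccl7*, -0.95 for *Myc* and -0.81 for *Thbs1*. It was -5.03 for *Fos*, an immediate early gene, which differed by 7.48.

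Contractile genes had negative values in WT mice too, at a smaller size. Their median was -1.80 in *Plod1-/-* and -0.86 in WT mice, and 6 of 19 were called negative for the difference, *Lmod1* at -1.88 and *Myh11* at -1.35, whereas *Acta2* (-0.94), *Tpm1* (-0.59), *Itga8* (-0.77) and *Tagln* (-0.12) did not pass. The calls of *Myh11*, *Myl9* and *Ppp1r12b* were each lost with the replicate number as a block and with several of the mice left out. Of the clock genes *Dbp* (-3.04) and *Nr1d1* (-1.92) were called negative and *Nfil3* (2.40) and *Cry1* (1.20) positive, and *Gucy1a1* (-1.14) and *Pde5a* (-1.01) were called negative. The call of *Pde5a* was lost without saline-treated mouse 1 or 4 or Ang II-treated mouse 3, 4 or 5, and that of *Cry1* without Ang II-treated mouse 2. Several genes that rose strongly in *Plod1-/-* mice did not differ by the test: *Saa3* (-0.08), *Hp* (1.34), *Lrg1* (1.21), *Lcn2* (1.99), *Spp1* (1.31), *Ccl8* (0.67) and *Asns* (0.51). For the energy genes the larger values were those of the WT mice, where the medians were 1.61 for oxidative phosphorylation and 2.26 for fatty acid oxidation, and 18 of 21 and 10 of 16 were called negative. Brown and white fat genes, whose WT medians were 4.40 and 3.14, moved with them, and their part was not tested.

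**Figure D5:**
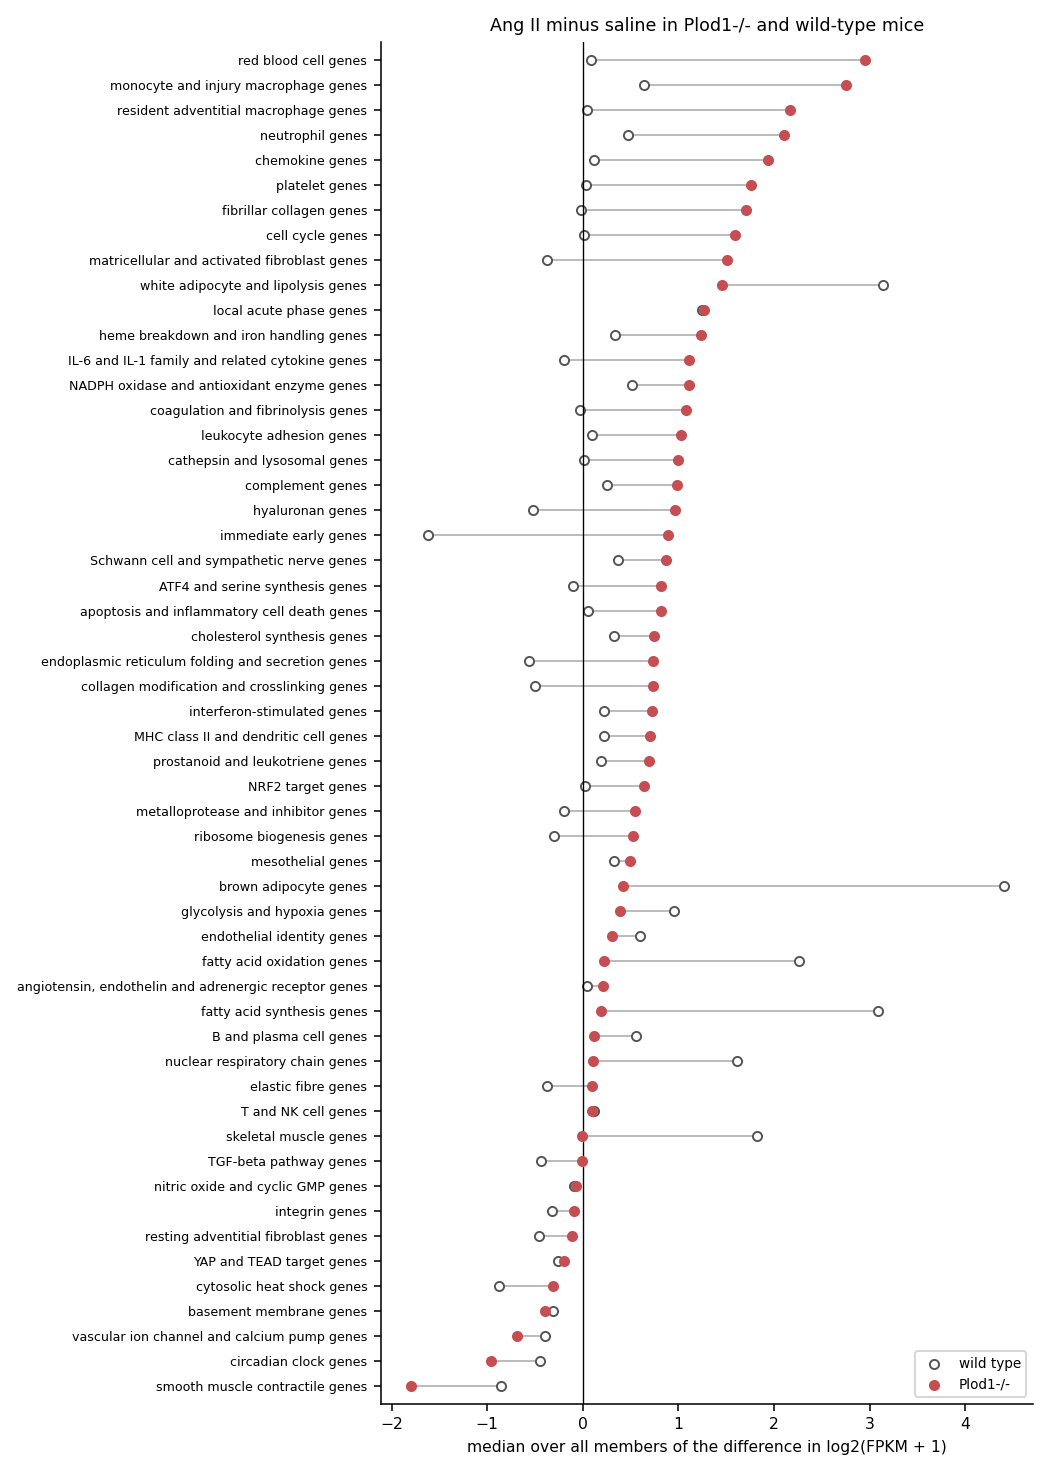
Median over all members in the files of the Ang II minus saline difference in mean log2(FPKM + 1) for each gene list, with filled points for *Plod1-/-* mice and open points for WT mice, 5 mice a group. For the macrophage list the medians are 2.75 and 0.64, for the smooth muscle list -1.80 and -0.86, and for oxidative phosphorylation 0.11 and 1.61.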

How the data were processed

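RNA of the abdominal aorta of 20 mice, 5 for each genotype and treatment, was sequenced with a kit that does not keep the strand. The deposited files give 1 FPKM value for each gene and mouse. Per the study's methods, the authors aligned reads with HISAT2 and obtained FPKM with StringTie, Cuffquant and Cuffnorm; the submitters' processing notes name HISAT2 2.1.0, Bowtie2 2.2.3, HTSeq 0.6.0 and the mm10 build. FPKM values are scaled by transcript length and library total, so depth is not known from them. Symbols were matched to GENCODE M21 identifiers.

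Genes that stood at 1 FPKM or more in 5 or more of the 10 *Plod1-/-* mice were compared on log2(FPKM + 1) with limma 3.58.1 in R 4.3.3 (moderated, with a trend of variance on level, two-sided, Benjamini-Hochberg over all genes tested). The difference from WT mice was a contrast in a fit of all 20 mice with the same minimum. Genes below the minimum were given by their values, or by a two-sided exact permutation test, whose smallest p is 0.00794. The procedure was tested on simulated data. Summaries used Python 3.11.15 and pandas 2.3.3, and figures matplotlib 3.10.9.

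The members and the 54 gene lists were chosen with earlier results of these data known, so list counts are descriptions. The shares over all genes tested are 8.38% that rose, 5.51% that fell and 29.2% without overlap. List counts are over all members in the files, also those below the minimum. Genes named are the 10 that rose and the 10 that fell most without overlap, the 10 with the smallest p, *Plod1*, *Xist* and *Thbs1*, and members of the lists where their role is described. Genes outside this rule are said to be chosen after their values were seen. Some list members are not reported here. Promoter windows came from RefSeq (GRCm38.p6). The replicate numbers are not stated to pair the mice, and a check of them could not decide this, so the main fit used no block. Alternatives were a pseudocount of 0.1, no minimum, quantile normalization, no variance trend, all 4 groups in one fit, a replicate block, omitting each *Plod1-/-* mouse in turn, and omitting the pair of libraries that held *Xist* RNA. A minimum in 4 mice, with both libraries with *Xist* RNA or Ang II-treated mouse 1 left out, was added after the data were seen.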

Additional observations from a re-analysis of the deposited data

Results flagged for a closer look

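In each group of 5 mice the list levels and the named genes were searched for a mouse that stood apart from the other 4 by Dixon's criterion. This was done for 168 groups, and chance alone gives about 1 in 20, so that 10 mice standing apart is near that number. Among list levels, given as mean log2(FPKM + 1), Ang II-treated mouse 1 was low for resident macrophage genes (4.27), endothelial genes (2.78), cytokines (3.08) and complement (5.01), and Ang II-treated mouse 5 stood apart for the TGF-beta list (3.61). Saline-treated mouse 3 was high for MHC class II (5.91) and red blood cell genes (6.65), and saline-treated mouse 2 was low for smooth muscle genes (7.57). Among named genes, *Chil3* stood at 0.560 FPKM in saline-treated mouse 3 and *H19* at 2.96 FPKM in saline-treated mouse 1, both far below the Ang II values.

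Of 30 named genes whose response was compared between genotypes by limma, 28 differed, and *Hp* and *Fbxo30* did not pass. Over all genes 9.69% were called positive and 6.36% negative, but these 30 were chosen for the size or the p of their response in *Plod1-/-* mice, which the test uses again, so that their count is a description. The difference, response in *Plod1-/-* minus response in WT mice on the log2 scale, was positive for *Hmox1* (6.48), *Pf4* (5.55), *S100a9* (4.98), *Chil3* (4.75), *Arg1* (4.59), *Clec4n* (4.59), *S100a8* (4.53), *Thbs1* (4.15), *H19* (3.89), *Tnfaip6* (3.86), *Myc* (3.80), *Wfdc17* (3.41), *Fam107b* (2.10) and *1110038B12Rik* (1.52). It was negative for *Tceal6* (-3.62), *5430431A17Rik* (-3.44), *Tcap* (-3.41), *Smim5* (-3.23), *Dbp* (-3.04), *Sost* (-2.97), *Fbxl22* (-2.66), *Retnla* (-2.41), *Ppp1r1b* (-2.33), *Gm49251* (-2.11), *Islr* (-1.72), *Col4a4* (-1.33), *Cpq* (-1.31) and *Gucy1a1* (-1.14).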

How the results depend on the processing

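The number of genes that rose in *Plod1-/-* mice was 1034 and ranged from 915 to 1269 over the other planned settings that kept all 10 mice, with 1021 without both libraries with *Xist* RNA, and the number that fell was 680 and ranged from 663 to 958, with 718. Leaving out each mouse gave 763 to 1066 genes that rose and 618 to 771 that fell, with the lowest number that rose without Ang II-treated mouse 4. Genes at or above 1 FPKM in the Ang II group alone cannot reach 5 mice once 1 of that group is left out, which by construction lowers the counts of the neutrophil, platelet, cytokine, cell cycle and coagulation lists. With a minimum in 4 mice, added after the data were seen, 1516 rose and 779 fell without Ang II-treated mouse 1, and 1476 and 780 without both libraries with *Xist* RNA. After quantile normalization the median over the genes tested shifted by -0.11 on the log2 scale and the share of calls that were higher from 60.3% to 52.2%. For the difference from WT mice the share called positive went from 60.4% to 48.2%. That difference had 1067 to 1479 positive and 739 to 1013 negative calls with each *Plod1-/-* mouse left out. No WT mouse was left out, so how far the difference rests on single WT mice was not examined. Of 299 list or named genes called in *Plod1-/-* mice, 228 were called in each of 7 planned settings, 30 were tested but not called in some setting and 42 could not be tested in some. With each of 10 mice left out in turn the numbers were 222, 35 and 44. For 334 genes called for the difference from WT mice they were 257, 68 and 9 over 6 settings, and 277, 49 and 8 with each of the same 10 *Plod1-/-* mice left out. In these settings the counts of genes called over all genes and over all lists together were within 1.5 times their first value, and no called value changed sign. Counts of single lists moved more, as given beside them.

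Mice with the same replicate number did not deviate together throughout (r from -0.16 to 0.43, own number highest for 2 of 5). With 5 numbers this check cannot exclude that they pair the mice. With the replicate number as a block 1043 genes rose and 674 fell, and the difference from WT mice had 1244 positive and 850 negative calls. Depth is unknown, and read counts were not used here, so counting error in genes of low FPKM was not measured.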

Other observations

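Apart from *Th* and *Dbh*, members of the list of Schwann cell and nerve genes, all genes in the next paragraphs were chosen after their values were seen. No test is made of them as groups. Genes of sympathetic neurons, the nerve cells that release noradrenaline, were present in some Ang II-treated *Plod1-/-* mice and low in the others. Of 20 such genes, 2 to 3 reached 1 FPKM in each saline-treated mouse, and 8, 4, 20, 20 and 19 did in Ang II-treated mice 1 to 5. *Th*, which makes the precursor of dopamine, was at 0.0148 to 0.274 FPKM under saline and at 3.53, 0.312, 53.0, 81.4 and 55.1 FPKM under Ang II. *Dbh*, which makes noradrenaline from dopamine, was at no more than 0.212 FPKM under saline and at 3.57, 0.424, 89.7, 198 and 92.7 FPKM under Ang II. For the 16 genes below the minimum the two-sided exact permutation p ran from 0.00794, the smallest that 5 against 5 mice allow, to 0.0952. Of the 20, 9 had groups without overlap, beside 29.2% of all genes tested. Because the set of 20 was put together after its values were seen, these p-values and this count are descriptions only. The highest WT values under Ang II were 1.74 FPKM for *Th* and 2.17 FPKM for *Dbh*. *Pnmt*, the enzyme of adrenal chromaffin cells that turns noradrenaline into adrenaline, fell (log2 fold change -1.48, SE 0.16) and passed the minimum through the saline group alone. It starts at 98386450 on chromosome 11, close to the end of *Tcap* at 98384953 on the same strand, and whether its values follow *Tcap* was not tested. *Cyp11b1* of the adrenal cortex was at or below 0.0789 FPKM in every mouse. *Star*, also looked at for adrenal tissue, was at 0.751 to 1.26 FPKM and was not called (log2 fold change -0.13). These genes mark cells whose bodies lie in ganglia beside the aorta, and how much of such tissue each sample held was not measured.

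Further leukocyte genes that rose included *Tyrobp* (4.22), *Mpeg1* (4.23), *Lyz2* (4.16), *Apoe* (3.33), *Spi1* (3.18) and *Cebpb* (2.84), given as log2 fold changes. They were picked with their values known, so their number is no result. Among secreted proteins, *Igf1*, a growth factor, was at 1.02, 1.29, 1.30, 1.02 and 2.10 FPKM under saline and at 10.8, 11.3, 17.6, 12.1 and 19.8 FPKM under Ang II (log2 fold change 2.68, SE 0.19). *Prg4*, or lubricin, *Serpina3n* and *Ptx3* rose by 3.69, 3.80 and 3.74, and *Ptx3* passed the minimum through the Ang II group alone. Genes that fell included the neuropeptide Y receptor *Npy1r* (-2.21), the Wnt inhibitor *Wif1* (-2.58), the matrix proteoglycan *Prelp* (-2.15), the glucocorticoid-induced factor *Klf15* (-1.96), the retinol carrier *Rbp4* (-2.11) and the muscle genes *Casq1* (-2.44), *Sgca* (-2.33) and *Fbxo32* (-2.39). By kind of gene, of 11065 protein-coding genes tested 985 rose and 600 fell, while of 147 lincRNAs 6 rose and 20 fell, of 127 antisense RNAs 2 rose and 14 fell, and of 64 miRNA genes 1 rose and 10 fell. Over all genes tested 8.38% rose and 5.51% fell. The libraries did not keep the strand, so antisense RNAs cannot be told apart from overlapping genes on the other strand. Whether values of miRNA genes came from longer transcripts around them was not tested.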
